A study of Mus musculus with 2 samples.

Results

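The semaphorin, plexin, neuropilin, ephrin and Eph receptor genes are the ligands and receptors of a pair of contact and guidance signalling systems. They were taken by symbol, as every gene with a probe set of its own whose symbol starts with Sema, Plxn, Efna, Efnb, Epha or Ephb, together with Nrp1 and Nrp2. This gave 53 genes of 18193 on the array. There were 28 ligand genes, of which 20 encode semaphorins and 8 ephrins, and 24 receptor genes, of which 11 encode plexins or neuropilins and 13 Eph receptors. The remaining gene, Plxna4os1, is an antisense transcript at Plxna4 and was counted as neither. Ephb2 is not among the Eph receptor genes, as no probe set was annotated to it alone.

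Messenger RNA was measured on Affymetrix arrays in unsorted mouse bone marrow cells grown for 10 days with ascorbic acid at 50 µg/ml and β-glycerophosphate at 10 mM, which together favour osteoblast formation and mineral deposition by marrow stroma. One culture came from Cpdm mice, the chronic proliferative dermatitis mutant, which carries a spontaneous mutation of Sharpin in all its cells. Its product SHARPIN belongs to the ligase that builds linear ubiquitin chains, and the mutant has no working protein. The other came from wildtype mice grown with the same supplements, and neither culture had any other treatment. With 1 array per genotype there was no replicate error, no test and no p-value, so every difference describes these 2 arrays. Not given in the sources used here are the strain, age, sex and number of the mice.

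Semaphorins are secreted (class 3) or membrane-bound ligands that signal through plexins, and most class 3 members need a neuropilin as the ligand-binding co-receptor. Ephrins are held on the cell surface, ephrin-A proteins by a lipid anchor and ephrin-B proteins by a transmembrane segment, and they activate Eph receptor tyrosine kinases on a neighbouring cell. In bone, Sema3a made by osteoblast-lineage cells restrains osteoclasts and favours osteoblasts, Sema4d from osteoclasts restrains osteoblasts through Plxnb1, and ephrin-B2 on osteoclasts pairs with EphB4 on osteoblasts.

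Some facts of the array pair touch all results. The values are MAS5 signals on a linear scale, and a floor was set at the 40th percentile of each array, 18.5 for Cpdm and 18.7 for wildtype. A gene was counted as measured if its representative probe set, the one with the highest mean log2 signal, reached the floor in at least 1 array. Spike-in controls, added in equal amounts, differed by 0.01 ± 0.11 log2 units (SD over 18 probe sets). From how far 2 probe sets of the same gene lay apart, the error of a single one was 0.32 log2 units (robust SD). Control probe sets for 18S ribosomal RNA had log2 ratios from -3.75 to -2.37, and the sex-linked Xist and Uty differed with log2 ratios of 2.17 and -1.92, so these differences move with genotype, and their part in the results below was not tested. Sharpin RNA was present in both cultures with a log2 ratio of -0.28, which does not check the labels because the mutation need not remove the transcript.

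Cell markers moved with genotype as well. Of 8 measured osteoblast markers, 7 were at least 2-fold lower in Cpdm, with a summed signal of 4933 in Cpdm and 14955 in wildtype. Of 10 macrophage and monocyte markers, 3 were at least 2-fold higher, with sums of 16017 in Cpdm and 12342 in wildtype. Contractile markers of smooth muscle and myofibroblasts were at least 2-fold higher for 3 of 5 measured members and lower for 1, Des, with sums of 6712 in Cpdm and 2998 in wildtype. Among 10 endothelial markers 6 lay below the floor in both arrays, including the defining genes Pecam1, Cdh5 and Tek, and the 4 measured ones summed to 160 in Cpdm and 246 in wildtype. Of 6 measured neuron and Schwann cell markers, 2 were at least 2-fold higher and none lower, with sums of 477 in Cpdm and 242 in wildtype. The 2 were S100b and Rbfox3. Rbfox3 was below the floor in wildtype, and its 1 other measured probe set did not share its direction. Mbp, with the largest signal of these markers, had 3 other measured probe sets, of which 1 shared its direction. Stroma and fibroblast markers split, with 2 higher and 2 lower of 8, and 1 of 4 measured neutrophil markers was at least 2-fold lower. No measured osteoclast (5), B cell (3) or T and NK cell (3) marker passed 2-fold. The osteoclast markers Calcr, Ocstamp and Dcstamp lay below the floor in both arrays. The 5 measured ones summed to 1966 in Cpdm and 2894 in wildtype, with Ctsk 1.95-fold lower. In such mixed cultures, fewer cells of a type and less RNA per cell cannot be told apart, and how much of each difference below comes from cell make-up was not tested.

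Of the 53 genes, 44 were measured, 37 in both arrays and 7 in 1 array. In Cpdm 4 were at least 2-fold higher (9.09%), beside 5.84% of all 14055 measured genes. At least 2-fold lower were 7 (15.9%), beside 5.98% of all measured genes. Together 11 (25.0%) passed 2-fold in either direction, beside 11.8% of all measured genes, and 33 lay between. Without a floor the higher share was 7.55%, beside 9.57% of all genes, so it did not exceed the background there. With the floor at the 20th percentile it was 7.69%, beside 7.65% of all genes. The higher genes were Sema4a, Sema3c, Sema3a and Plxnd1. The lower ones were Sema3b, Plxnb1, Sema5a, Nrp2, Efna1, Efna3 and Sema4c. The median log2 ratio of the measured members was -0.09, beside 0.03 for all measured genes, while the median size of the log2 ratio in either direction was 0.49 beside 0.35. Members thus differed in both directions around a median near 0.

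**Figure D1:**
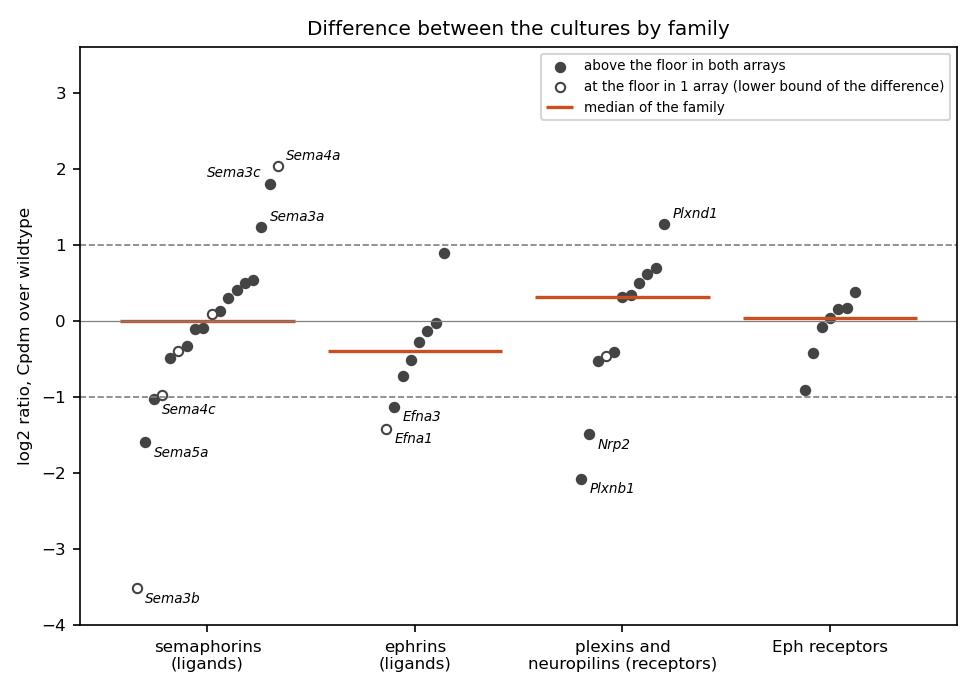
Log2 ratio, Cpdm over wildtype, for the 44 measured semaphorin, ephrin, plexin, neuropilin and Eph receptor genes, 1 point a gene by its representative probe set, with the 2-fold lines dashed and family medians as bars. Sema4a is the highest at 2.03 and Sema3b the lowest at -3.52, while all 7 measured Eph receptors lie inside the 2-fold lines.

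Ligands and receptors were set side by side. Of 26 measured ligand genes, 3 were at least 2-fold higher (11.5%) and 5 at least 2-fold lower (19.2%), beside 5.84% and 5.98% of all measured genes. Their median log2 ratio was -0.12. Of 18 measured receptor genes, 1 was at least 2-fold higher (5.56%) and 2 at least 2-fold lower (11.1%), and their median was 0.10. The higher share of the receptors was thus near that of all measured genes. The same all-gene shares stand beside the counts by family and class given below. The ligand median minus the receptor median was -0.22 log2 units, a difference without a test. Ligands and receptors also differed in signal level. At the floor in 1 array were 6 of the 26 ligands and 1 of the 18 receptors. Summed signals in Cpdm were 1834 for ligands and 5062 for receptors. The part of signal level in these shares was not tested. By family the medians were -0.005 for semaphorins, -0.40 for ephrins, 0.31 for plexins and neuropilins and 0.04 for Eph receptors. The semaphorin median hides members that differ strongly in opposite directions, with 9 above 0 and 9 below.

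The secreted class 3 semaphorins held the widest range. All 7 were measured, 4 of them in 1 array only, and 2 were at least 2-fold higher and 1 at least 2-fold lower. Sema3b, a class 3 ligand that binds neuropilins and is known as a tumour suppressor candidate, had a signal of 5.55 in the Cpdm culture and 212 in the wildtype culture. The Cpdm signal lay below the floor, so the gene was at least 11.4-fold lower. Its other 2 probe sets read 3.15 and 10.2 in Cpdm, against 79.3 and 36.2 in wildtype, at least 4.29-fold and at least 1.96-fold lower. All 3 Sema3b probe sets were thus above the floor in wildtype and below it in Cpdm.

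Sema3c and Sema3a went the other way. Sema3c, which acts through neuropilins with plexin A or Plxnd1 and is known from heart outflow tract development, had a signal of 95.6 in Cpdm and 27.4 in wildtype, 3.49-fold higher. Its second probe set, near the floor, read 21.8 in Cpdm and 13.0 in wildtype, which bounds the difference at only 1.16-fold or more in the same direction. Sema3a, the ligand of Nrp1 and plexin A receptors that protects bone, read 90.2 in Cpdm and 38.5 in wildtype, 2.34-fold higher. A second Sema3a probe set read 52.4 in Cpdm and 16.3 in wildtype, at least 2.80-fold higher. Sema3a thus passed 2-fold by both measured probe sets and Sema3c by 1 of 2.

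None of the other 4 class 3 members passed 2-fold. Sema3e, which binds Plxnd1 without a neuropilin, read 17.9 in Cpdm and 36.3 in wildtype, at least 1.97-fold lower and just outside the 2-fold rule. Sema3d read 48.0 in Cpdm and 60.4 in wildtype, 1.26-fold lower. Sema3f, a ligand of Nrp2, read 18.3 in Cpdm and 24.4 in wildtype by a probe set that can bind related transcripts. Sema3g was above the floor only in Cpdm, at 19.9, against 10.7 in wildtype. On the chromosome, Sema3d and Sema3a are next to each other with no protein-coding gene between them, and Sema3a and Sema3e are 3 genes apart, yet their log2 ratios were -0.33, 1.23 and -0.98.

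The membrane-bound class 4 semaphorins were above 0 with 1 exception. All 6 were measured, with a median log2 ratio of 0.45. Sema4a, a ligand of plexin B receptors and Plxnd1 known from T cell priming by dendritic cells, read 76.6 in Cpdm and 11.3 in wildtype, at least 4.09-fold higher. That probe set can bind related transcripts, and the gene-specific one read 71.6 in Cpdm and 3.37 in wildtype, at least 3.82-fold higher. Sema4a was therefore above the floor in the Cpdm culture only, by both probe sets. Sema4b, Sema4f, Sema4g and Sema4d were between 1.23-fold and 1.45-fold higher. Sema4d, whose receptors are Plxnb1 and the B cell protein Cd72, read 302 in Cpdm and 246 in wildtype, a log2 ratio of 0.30. The exception was Sema4c, a ligand of Plxnb2, which read 29.0 in Cpdm and 59.2 in wildtype, 2.05-fold lower and just inside the rule.

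Among the class 5, 6 and 7 semaphorins 5 of 7 were measured and 1 passed 2-fold. Sema5a, a transmembrane semaphorin with thrombospondin repeats that can signal through Plxnb3, read 23.0 in Cpdm and 69.7 in wildtype, 3.02-fold lower. The Cpdm value is near the floor, which makes the size of this fold uncertain. Sema6d, a ligand of Plxna1, read 160 in Cpdm and 172 in wildtype, and its 4 measured probe sets were 1.08-fold to 1.37-fold lower. Sema7a, a lipid-anchored semaphorin that binds Plxnc1 and integrins, read 227 in Cpdm and 209 in wildtype. Sema6c had a log2 ratio of -0.49 and Sema5b of -0.10. Sema6a and Sema6b lay below the floor in both cultures.

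Of the 8 ephrin genes, all measured, 2 were at least 2-fold lower and none at least 2-fold higher. The other 6 lay between, with log2 ratios from -0.73 to 0.89. Efna1, a lipid-anchored ligand of EphA2, read 5.96 in Cpdm and 49.4 in wildtype, at least 2.68-fold lower. Its other probe set was below the floor in both arrays. Efna3 read 36.5 in Cpdm and 79.7 in wildtype, 2.18-fold lower, and 20.4 against 45.5 by its other probe set, 2.23-fold lower. All 5 ephrin-A genes were below 0, with log2 ratios from -1.42 for Efna1 to -0.14 for Efna5. Efna1, Efna3 and Efna4 are neighbours on chromosome 3 with no other protein-coding gene between them in the RefSeq order, and Efna4 read 53.9 in Cpdm and 77.0 in wildtype, 1.43-fold lower.

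The ephrin-B genes did not share a direction. Efnb1, whose loss in mice disturbs skull and limb patterning, read 160 in Cpdm and 265 in wildtype, 1.66-fold lower, while its other probe sets were 1.61-fold and 2.44-fold lower. Efnb2, the ephrin that osteoclasts carry, read 56.2 in Cpdm and 30.3 in wildtype, 1.86-fold higher. A second Efnb2 probe set read 40.6 in Cpdm and 9.88 in wildtype, at least 2.17-fold higher, but another was near equal at 27.1 and 28.3. Efnb2 was thus the only ephrin gene above 0, and its probe sets disagreed. Efnb3 read 29.9 in Cpdm and 30.5 in wildtype.

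**Figure D2:**
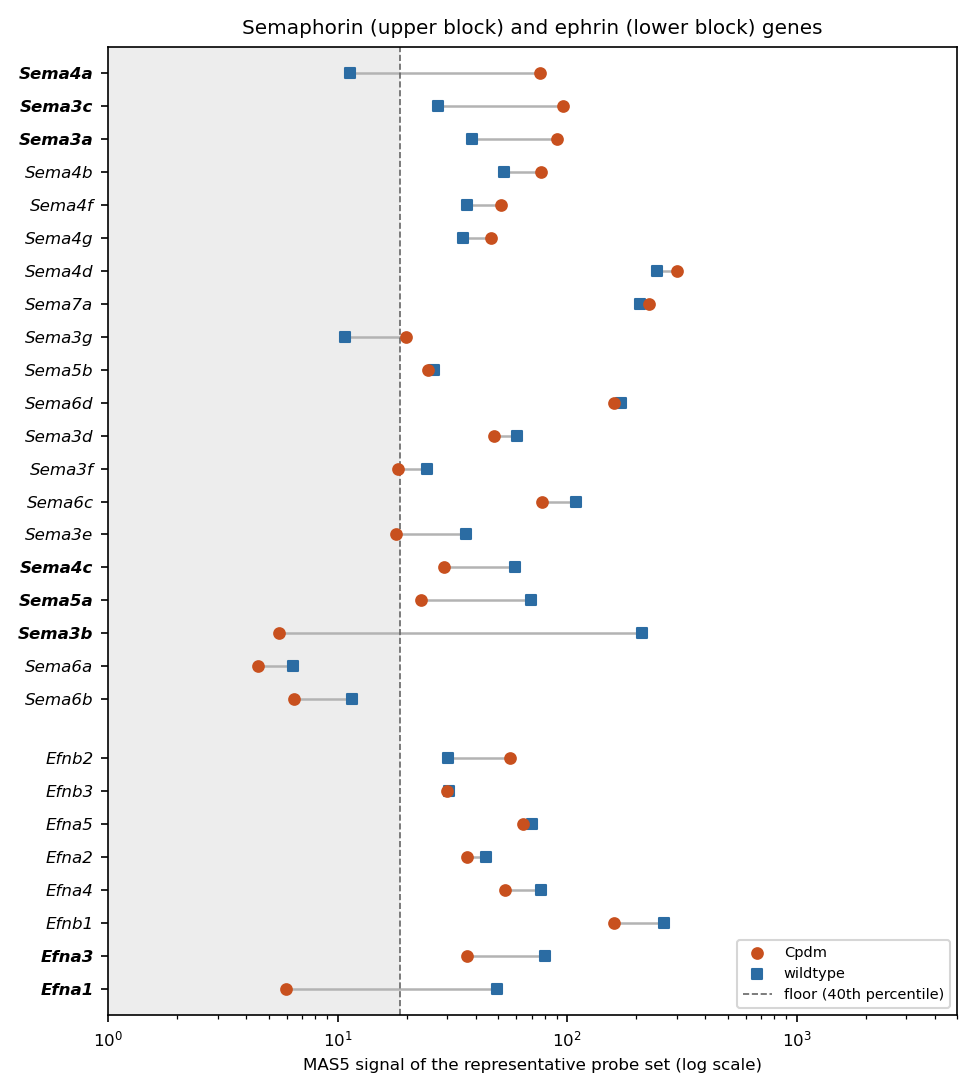
MAS5 signal of the representative probe set, on a log axis, for 20 semaphorin and 8 ephrin genes in the Cpdm culture (circles) and the wildtype culture (squares), with the floor dashed, signals below it shaded and genes past 2-fold in bold. Sema3b and Efna1 lie in the shaded range only in Cpdm, and Sema4a only in wildtype.

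The plexin and neuropilin genes included opposite differences within a receptor class. All 11 were measured, 1 at least 2-fold higher and 2 at least 2-fold lower. Plxnd1, the receptor of Sema3e and a partner of neuropilins in vessel patterning, read 340.3 in Cpdm and 141 in wildtype, 2.42-fold higher by its only probe set. Plxnb1, the receptor through which Sema4d acts on osteoblasts, read 26.7 in Cpdm and 112 in wildtype, 4.22-fold lower. Its second probe set read 25.4 in Cpdm and 59.3 in wildtype, 2.34-fold lower. Both Cpdm values of Plxnb1 are near the floor, which makes the size of these folds uncertain. Plxnd1 and Plxnb1 thus stood at opposite ends of the plexins, with log2 ratios of 1.27 and -2.08.

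The other plexins differed by less than 2-fold. Plxnb2, a widely expressed plexin, read 553 in Cpdm and 437 in wildtype, a log2 ratio of 0.34. Plxnc1, the receptor of Sema7a, read 385 in Cpdm and 272 in wildtype, 1.42-fold higher, while its other measured probe sets had log2 ratios between -0.22 and 0.22. Plxna1, a plexin that couples to Trem2 and Tyrobp in osteoclasts and dendritic cells, read 292 in Cpdm and 236 in wildtype, and 26.4 against 40.2 by its second probe set, so the direction was not shared. Plxna2 was 1.53-fold higher with all 3 measured probe sets above 0. Plxna3 was 1.44-fold lower and Plxna4 at least 1.38-fold lower. Plxnb3 was 1.33-fold lower by 1 probe set and at least 1.66-fold higher by another, which can bind related transcripts.

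The 2 neuropilins went in opposite directions. Nrp1, the co-receptor for Sema3a and a co-receptor for VEGF, read 1800.0 in Cpdm and 1111 in wildtype, 1.62-fold higher by its representative probe set. Its other 3 probe sets read 769, 531 and 280.0 in Cpdm, against 337, 377 and 95.1 in wildtype, 2.28-fold, 1.41-fold and 2.94-fold higher. Nrp1 was thus higher by all 4 probe sets and at least 2-fold higher by 2 of them, although it does not count among the genes past 2-fold. Nrp2, the co-receptor favoured by Sema3f and shared by Sema3b and Sema3c, read 970.2 in Cpdm and 2733 in wildtype, 2.82-fold lower. The other Nrp2 probe sets read 702, 284 and 14.6 in Cpdm, against 1115, 848 and 43.0 in wildtype, 1.59-fold, 2.98-fold and at least 2.33-fold lower. The probe sets of each neuropilin shared a direction, 4 higher for Nrp1 and 4 lower for Nrp2.

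The starts of these 4 receptor genes are shown because paired receptors of 1 class differed in opposite directions. Each is the 250 bases before the RefSeq transcript start in GRCm38.p6, printed on the gene's strand, and capitals mark matches to the GC box GGGCGG or its reverse complement.
Plxnd1, chr6:115995006-115995255, minus strand: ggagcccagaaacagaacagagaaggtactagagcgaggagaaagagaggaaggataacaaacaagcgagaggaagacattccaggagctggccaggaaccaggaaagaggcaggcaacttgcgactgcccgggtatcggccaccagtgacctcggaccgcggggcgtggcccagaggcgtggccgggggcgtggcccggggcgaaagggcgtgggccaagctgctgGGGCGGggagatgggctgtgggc
Plxnb1, chr9:109095186-109095435, plus strand: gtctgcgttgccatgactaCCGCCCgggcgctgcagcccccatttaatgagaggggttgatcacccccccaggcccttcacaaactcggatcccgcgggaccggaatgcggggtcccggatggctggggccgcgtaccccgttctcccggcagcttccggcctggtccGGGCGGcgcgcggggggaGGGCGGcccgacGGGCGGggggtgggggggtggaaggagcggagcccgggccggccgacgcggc
Nrp1, chr8:128358823-128359072, plus strand: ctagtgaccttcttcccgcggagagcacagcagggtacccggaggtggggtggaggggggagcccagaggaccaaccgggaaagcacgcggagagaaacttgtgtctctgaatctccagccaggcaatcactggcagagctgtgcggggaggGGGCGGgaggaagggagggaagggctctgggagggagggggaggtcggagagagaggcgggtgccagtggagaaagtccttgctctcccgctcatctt
Nrp2, chr1:62703067-62703316, plus strand: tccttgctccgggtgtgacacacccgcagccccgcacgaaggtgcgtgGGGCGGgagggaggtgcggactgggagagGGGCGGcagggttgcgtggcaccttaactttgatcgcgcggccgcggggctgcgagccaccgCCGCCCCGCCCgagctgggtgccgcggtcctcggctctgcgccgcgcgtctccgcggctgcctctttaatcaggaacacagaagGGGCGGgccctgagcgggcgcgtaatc

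Plxnd1 and Nrp1, with positive log2 ratios, held 1 GC box each, whereas Plxnb1 held 4 and Nrp2 held 5, of which a pair overlap by 1 base. Among other members above 0, Sema3a held 0 and Plxnc1 held 4. Among those below 0, Epha2 held 1 and Sema5a held 5. The 4 printed windows were chosen by direction, and box number by direction was not tested over all members. None of the 4 windows matched the RUNX motif TGTGGT, the AP-1 motif TGANTCA, the NF-κB consensus or the TATA box TATAAA on either strand. Over all 32851 RefSeq promoter windows of this length, 32.7% held a GC box, 14.0% the RUNX motif, 6.75% the AP-1 motif, 7.25% the NF-κB consensus and 12.4% the TATA box. Promoter entries were found for 46 of the 53 genes and for 10 of the 11 genes past 2-fold, Sema3b being without one. Some genes, such as Sema4a, have several windows, each counted separately. A GC box was present in 14 of 16 windows of the genes past 2-fold and in 32 of 44 windows of the other members, so this feature was common to both. The median GC content was 64.2% over 60 member windows and 52.4% over all windows. A match describes letters in a window and no bound factor.

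Eph receptors showed no difference past 2-fold in either direction. Of 13 genes 7 were measured, with log2 ratios from -0.92 to 0.37. Epha2, the receptor of Efna1 that has been tied to restraint of osteoblasts, read 99.8 in Cpdm and 188 in wildtype, 1.89-fold lower. Epha3 read 235 in Cpdm and 210.5 in wildtype, with a log2 ratio of 0.16 and other probe sets on both sides of 0. Ephb1 read 49.9 in Cpdm and 38.5 in wildtype, and Ephb3 read 33.9 and 30.2. Epha1, Epha4 and Epha5 lay near the floor at 22.5 to 27.9 in Cpdm and 21.9 to 31.7 in wildtype. Epha2 and its ligand Efna1 were both lower in Cpdm, the receptor by less than 2-fold.

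The remaining 6 Eph receptor genes were below the floor in both cultures. Among them was Ephb4, the osteoblast receptor of ephrin-B2, at 4.29 in Cpdm and 7.66 in wildtype by its only probe set. A probe set below the floor gives no direction, so the receptor of the ephrin-B2 and EphB4 pair could not be compared. Epha6, Epha7, Epha8, Epha10 and Ephb6 were the others. The antisense transcript Plxna4os1 was also below the floor, at 17.6 in Cpdm and 9.26 in wildtype.

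**Figure D3:**
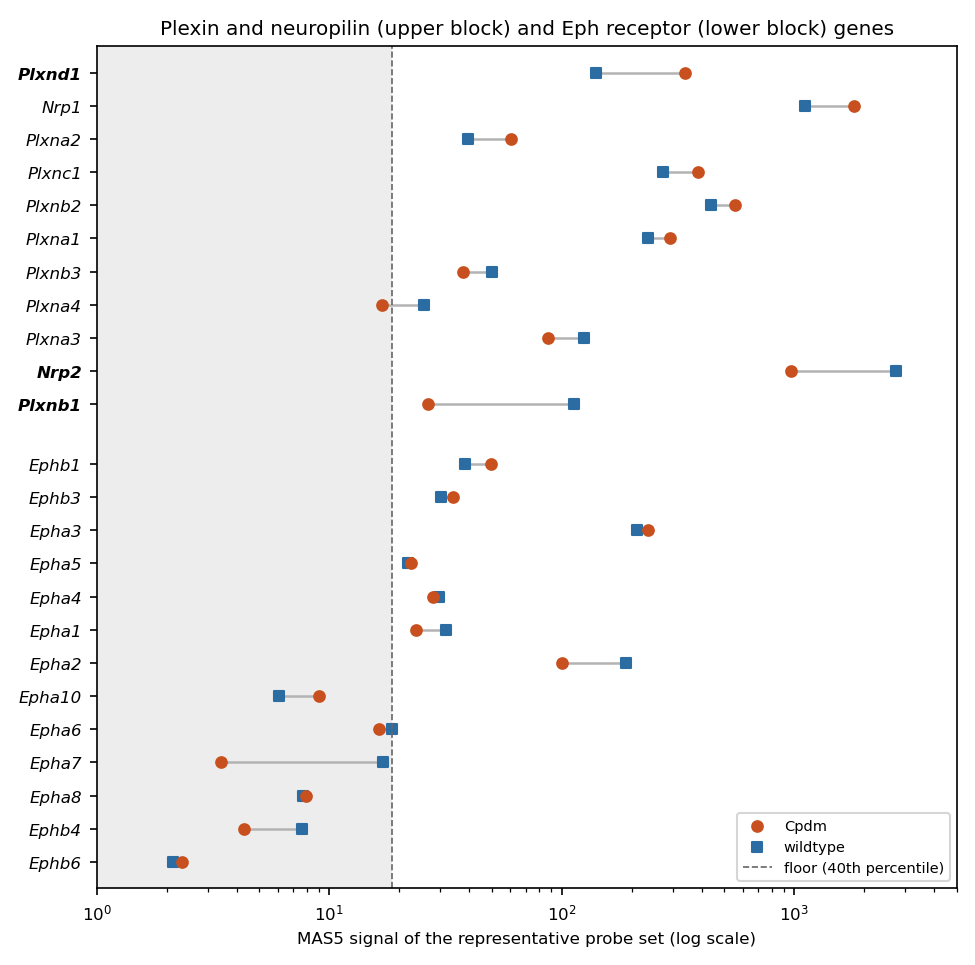
MAS5 signal of the representative probe set, on a log axis, for 11 plexin and neuropilin genes and 13 Eph receptor genes in the Cpdm culture (circles) and the wildtype culture (squares), with the floor dashed, signals below it shaded and genes past 2-fold in bold. Nrp1 and Nrp2 are far above the floor and differ in opposite directions, and 6 Eph receptor genes lie in the shaded range in both cultures.

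Some ligands and receptors known to bind each other were read side by side, chosen after their values were seen and without a test. Sema3b and Nrp2 were both lower, with log2 ratios of at most -3.52 and of -1.49. Sema3a and Nrp1 were both above 0, at 1.23 and 0.70. Sema4d and Plxnb1 parted, at 0.30 and -2.08. Sema3c and Plxnd1 were both higher, at 1.80 and 1.27, whereas Sema3e was lower beside the same receptor. Sema3c parted from Nrp2, at 1.80 and -1.49, and Sema4c from Plxnb2, at -1.03 and 0.34. Sema4a, at 2.03 or more, shared its direction with Plxnd1 and parted from Plxnb1. As the pairs are a selection, they do not show how often a ligand and its receptor shared a direction. Several of these genes share a receptor, so the pairs are not independent of each other.

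Probe sets of a gene gave a check within the arrays. Among 22 members with several measured probe sets, 15 had all of them on the same side of 0. Of the 11 genes past 2-fold, 7 had another measured probe set, which shared the direction for all 7 and also passed 2-fold throughout for 4 of them, Sema4a, Sema3a, Efna3 and Plxnb1. For Sema3b and Nrp2 some of the others passed, and for Sema3c the only other did not. The remaining 4, Plxnd1, Efna1, Sema4c and Sema5a, rest on a single measured probe set.

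**Figure D4:**
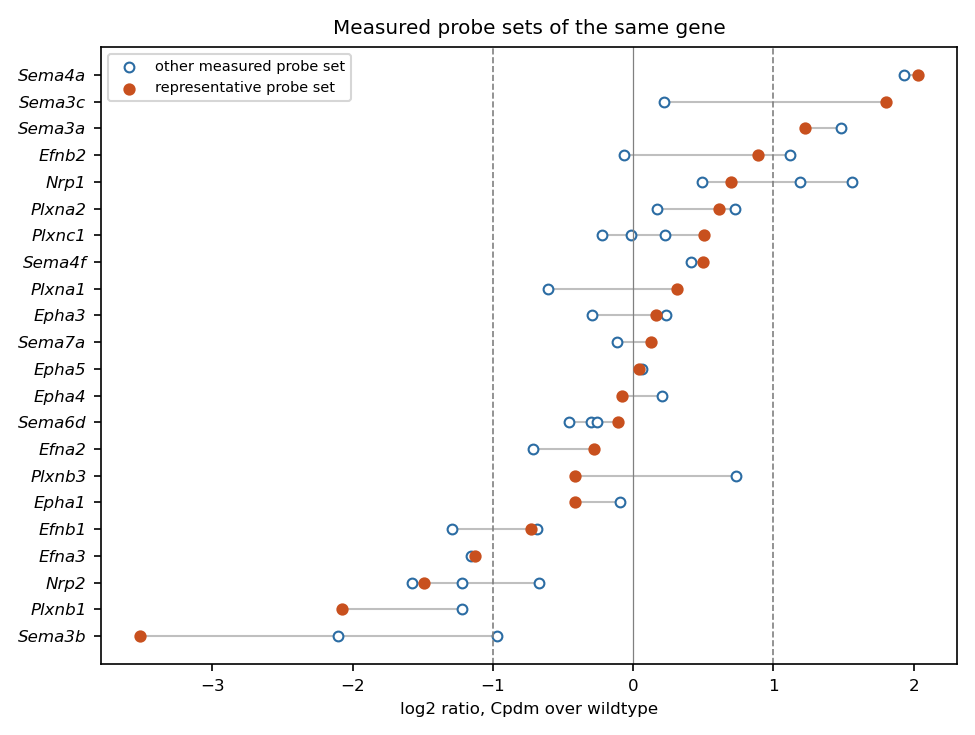
Log2 ratio, Cpdm over wildtype, for every measured probe set of the 22 members that have several, with the representative probe set filled and the others open, and the 2-fold lines dashed. All 4 Nrp1 probe sets lie above 0 and all 4 Nrp2 probe sets below it, whereas Plxnb3 and Plxna1 have probe sets on both sides.

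Partners that carry or modify these signals were read from a list of 66 genes, of which 62 were measured. At least 2-fold higher in Cpdm were 6 (9.68%), beside 5.84% of all measured genes. At least 2-fold lower were 11 (17.7%), beside 5.98% of all measured genes, with 45 between. The median log2 ratio of the partners was 0.06, beside 0.03 for all measured genes. On the lower side was Farp2, an exchange factor that acts below plexin A and neuropilin in Sema3a signalling. It read 40.3 in Cpdm and 211 in wildtype, 5.24-fold lower, by a probe set that can bind related transcripts. The gene-specific one read 43.3 in Cpdm and 151 in wildtype, 3.48-fold lower. Chn1, which encodes the Rac inhibitor α-chimaerin that acts below EphA4, read 35.6 in Cpdm and 172 in wildtype, 4.82-fold lower. By the representative probe sets, Farp2 and Chn1 had the largest differences among the measured partners. Mical3, a member of the plexin-binding oxidoreductase family, was 3.19-fold lower. The kinase gene Fyn was 2.86-fold lower and 2.42-fold lower by a second probe set. Crmp1, a collapsin response mediator, was at least 2.74-fold lower, and Ngef, the Eph-bound exchange factor ephexin, was 2.37-fold lower.

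On the higher side, Plxdc2, a membrane protein with a plexin-like domain, read 313 in Cpdm and 115 in wildtype, 2.72-fold higher. Its other probe sets were 4.34-fold and 1.23-fold higher. Itsn1, an exchange factor that EphB2 binds, read 691 in Cpdm and 261 in wildtype, 2.65-fold higher, while 1 of its 5 other measured probe sets was slightly below 0. The Plxna1 partners Trem2 and Tyrobp, which are macrophage and osteoclast genes, were 1.77-fold and 1.38-fold higher, beside the macrophage markers above. Whether they moved with macrophage number was not tested.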

How the data were processed

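The signal intensity values, deposited by the authors on a linear scale for 45101 probe sets and 2 arrays, came from MAS5 and GCOS 1.4, which the submitters' processing notes name. Biotin-labelled cRNA was made from 5 µg of total RNA, per the labels' protocols. Not given in the sources used here are the background settings, detection calls and scaling target. Of 45037 non-control probe sets, 34945 carried exactly 1 gene in the platform annotation, and all 53 member symbols were current.

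Signals were used as deposited. Those under the 40th percentile of an array were set to that floor, and where 1 array was at the floor the fold is a bound, written "at least". Differences are log2 ratios of Cpdm over wildtype, counted from 2-fold. Probe sets ending in _s_at or _x_at can bind related transcripts. Promoter sequences are from RefSeq, GRCm38.p6. Python 3.11.15, numpy 2.4.6 and pandas 2.3.3 were used, and the gene summary was tested on simulated data. The members and lists were chosen with earlier results of these data known. Every member is accounted for, those past 2-fold and those with a described bone or marrow role with both signals, and of the partner list the 8 largest differences past 2-fold are named. The number of arrays limits the precision. Alternative floors, probe set rules, scalings and folds were tried.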

Additional observations from a re-analysis of the deposited data

How the results depend on the processing

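No paired analysis was possible because each genotype has 1 array and no test was run, and no replicate could be left out. All 11 genes past 2-fold kept their direction under every floor, probe set rule and scaling that gave them a value, and 356 of 378 single-gene values moved by no more than 0.32 log2 units. Many could not move far, because centring shifts all genes alike by little and requiring both arrays leaves a ratio as it was. Lower floors change only genes that were at the floor, and a probe set mean only genes with several measured. Of genes under 2-fold, 3 changed sign with the mean over measured probe sets, Plxna1 to -0.15, Plxnb3 to 0.16 and Epha4 to 0.06. With the floor at the 60th percentile, 3 members were at least 2-fold higher (8.82% beside 5.52% of all genes) and 3 lower (8.82% beside 5.42%). The medians there were 0.12 for semaphorins, -0.21 for ephrins and 0.16 for Eph receptors. Sema4a, Efna1, Efna3, Sema4c and Sema5a no longer passed 2-fold, with log2 ratios of 0.83, -0.21, -0.90, -0.47 and -0.70. A higher floor shortens every difference that reaches it by construction. With genes above the floor in both arrays only, 3 of 37 members were higher (8.11% beside 5.72%) and 5 lower (13.5% beside 5.32%). The medians there were 0.13 for semaphorins and -0.28 for ephrins, over fewer genes. With the mean over measured probe sets the plexin and neuropilin median was 0.12. By that mean 2 of 62 signalling partners were higher, beside 4.81% of all genes. At 1.5-fold, 7 members were higher (15.9%, beside 15.7% of all genes) and 10 lower (22.7% beside 13.5%), with 14 partners higher and 12 lower. At 3-fold 2 members were higher (4.55% beside 1.54%) and 3 lower (6.82% beside 2.43%), with 0 partners higher and 3 lower. Without a floor, 4 members were higher (7.55% beside 9.57%) and 9 lower (17.0% beside 10.4%). With the floor at the 20th percentile, 4 were higher (7.69% beside 7.65%, near the background) and 9 lower (17.3% beside 8.45%). With all genes centred on their median, 4 were higher (9.09% beside 5.54%) and 8 lower (18.2% beside 6.32%), Sema3e being the addition. Signal near the floor limits Sema5a, Sema3e, Sema3c, Plxnb1 and most Eph receptors. With the floor at the 60th percentile the log2 ratio was 1.15 for Sema3c and -1.39 for Plxnb1. By the mean over measured probe sets it was 1.01 for Sema3c and -1.65 for Plxnb1.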
